A study of Gallus gallus with 26 samples.

Results

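The step of hatching was examined in the complexus of broiler chickens (Gallus gallus), as embryonic day 20 (E20) against embryonic day 19 (E19). The 5 E20 libraries and the 5 E19 libraries were chosen by the day in their sample titles, and they make up 10 of the 26 libraries of the series. The others are 4 libraries of E21, 6 of E17 and 6 of E15, which are used below where they share no library with the step. Each label gives broiler chicken, complexus muscle and a single batch, and the embryonic day is the sole factor. RNA was taken from frozen muscle. The series description lists hatch and then chick placement after E19, whereas the labels give these groups as embryonic days 20 and 21. Neither says whether an E20 bird had left the shell, nor whether each library came from a separate bird, so the p-values speak of the spread among these libraries, which may be technical.

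The complexus is a neck muscle on the back of the head, known as the hatching muscle, with which the chick drives its beak against the shell. It swells before hatching and regresses in the days after it. Around hatching the embryo also changes from gas exchange through the membranes under the shell to breathing with its lungs, and draws on glycogen and on the lipid of the yolk. MARS-Seq, which the series description names, counts the 3′ ends of transcripts, so that a gene's count needs no correction for its length when genes are ranked by abundance. In whole muscle, fewer cells of a type and less RNA per cell cannot be told apart.

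The E20 libraries held between 632074 and 1373614 counts and the E19 libraries between 580768 and 1106816. Genes were counted at 7618 to 8238 per E20 library and 7329 to 7901 per E19 library. A count of 0 in 1 library allows up to 2.19 CPM (normalised counts scaled to a common library size) in the deepest and 6.21 in the shallowest of the 10, taking 3 counts as the limit. The table lists genes by Ensembl identifier alone, no name could be paired with one, and markers of muscle or of other cell types were therefore not analysed here. Genes are described below by identifier, level and course.

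Of 8758 genes in the table, 5901 had enough counts to be tested, and 1621 (27.5%) differed between E20 and E19 (edgeR, quasi-likelihood test, Benjamini-Hochberg adjusted p under 0.05). Of all genes tested, 820 (13.9%) were higher and 801 (13.6%) lower at E20. Most of these changes were moderate: the log2 fold changes of the higher genes had a median of 1.00, those of the lower genes a median of -0.81, and 923 of the genes that differed (56.9%) changed less than 2-fold. The larger changes leaned towards higher levels at E20. At least 2-fold changes were found for 411 higher (6.96%) and 287 lower genes (4.86%). At least 4-fold changes counted 80 higher and 47 lower genes, and at least 8-fold changes 26 and 11. For 851 genes (14.4% of those tested) no E20 library overlapped any E19 library, with 450 higher and 401 lower.

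The balance of higher and lower genes rests on the scaling. CPM here are scaled by library totals and TMM factors, which set the bulk of the genes to no change and gave a median log2 fold change over all genes of 0.01. Scaled by library totals alone, that median was 0.35, and 2089 genes differed, 1761 higher and 328 lower at E20. Of these, 1148 also differed with TMM factors, and none of them changed sign. At least 2-fold, 831 genes were then higher and 132 lower. Changes below are relative to the TMM scale unless library totals are named, and the shift between the scales is that difference of medians.

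Among the genes whose days did not overlap, the largest rise was that of ENSGALG00000014616.5. It had 119.8, 276, 493, 936 and 1883 CPM in E20 replicates 1 to 5, against 2.76, 19.6, 2.34, 2.07 and 0 CPM in E19 replicates 1, 2, 3, 5 and 6 (log2 fold change 6.90, SE 0.63, adjusted p = 5.66e-10, edgeR with Benjamini-Hochberg adjustment, as for all adjusted p-values of single genes). All E20 libraries lay above all E19 libraries, yet the E20 libraries themselves ranged 15.7-fold. The size of the rise rests on single libraries, since the log2 fold change was 8.55 without E19 replicate 2, the highest of its day, and 6.22 without E20 replicate 5. ENSGALG00000028451.2 behaved alike, with 337, 550.3, 1073, 2950.4 and 3884 CPM at E20, against 119.9, 97.8, 63.3, 51.7 and 75.9 CPM at E19 (log2 fold change 4.41, SE 0.48, adjusted p = 1.93e-08). The order of the 5 E20 libraries was the same for both genes, with replicate 1 lowest and replicate 5 highest. ENSGALG00000041202.1 rose in a tighter range, with 299, 333, 419, 519 and 565 CPM in the E20 libraries, against 9.65, 6.91, 7.03, 6.21 and 13.2 CPM in the E19 libraries (log2 fold change 5.64, SE 0.30, adjusted p = 8.38e-15). Its E20 values stood in that order too. In the E21 libraries these genes averaged 2131 ± 810.3, 4018 ± 774 and 1031 ± 305 CPM (SD, n = 4), against 2.16 ± 1.17, 63.2 ± 27.1 and 2.53 ± 1.69 CPM in the E17 libraries (SD, n = 6).

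Further genes that rose were low at E19. ENSGALG00000000511.6 had 174, 174, 176, 430.2 and 114 CPM in the E20 libraries, against 19.3, 13.8, 11.7, 2.07 and 3.3 CPM in the E19 libraries (log2 fold change 4.30, SE 0.35, adjusted p = 5.64e-11). Its E20 replicate 4 stood apart from the other E20 libraries, which lay between 114 and 176 CPM, and its mean was 131 ± 41.6 CPM at E21 (SD, n = 4). ENSGALG00000040180.1 had 55.6, 42.7, 57.7, 47.3 and 35.6 CPM at E20, against 6.89, 0, 1.17, 8.28 and 3.3 CPM at E19 (log2 fold change 3.77, SE 0.48, adjusted p = 3.46e-07). ENSGALG00000027874.2 had 125, 139.6, 73.8, 49.1 and 28.2 CPM at E20, against 0, 6.91, 2.34, 8.28 and 11.5 CPM at E19 (log2 fold change 3.89, SE 0.78, adjusted p = 0.000317). This gene had already averaged 24.5 ± 21.3 CPM at E17 (SD, n = 6), above every E19 library.

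For 4 of the 10 largest rises the E19 libraries held at most 3 counts together, so the size of the rise is given as a ratio of rates with the bounds of its exact 95% Poisson interval. ENSGALG00000020688.5 had 70 counts in all E20 libraries, against 1 count in all E19 libraries, a ratio of 55.3 (9.61 to 2217). Its E20 libraries were uneven, with 4.28, 26.3, 19.7, 2.68 and 31.2 CPM, and the E21 mean was 89.2 ± 50.1 CPM (SD, n = 4). ENSGALG00000016318.5 had 80 counts at E20, against 3 at E19, a ratio of 21.1 (6.96 to 104). It had 14.3, 14.8, 16.1, 17 and 29.7 CPM in the E20 libraries. All E19 counts of this gene and of ENSGALG00000020688.5 stood in E19 replicate 2, without which the E19 libraries were at 0. ENSGALG00000037608.2 had 65 counts at E20, against 3 at E19, a ratio of 17.1 (5.61 to 85.2). It had 9.98, 4.93, 7.3, 12.5 and 46 CPM in the E20 libraries, where replicate 5 stood apart. Its log2 fold change was 4.03 (SE 0.88), against 3.25 without E20 replicate 5 and 5.01 without E19 replicate 3. For ENSGALG00000032889.1 the counts were 49 at E20, against 3 at E19, a ratio of 12.9 (4.17 to 64.8). The 4 genes had adjusted p-values in edgeR between 2.54e-05 and 0.000817. Their lowest E20 library stood above their highest E19 library in each case, which the rule for naming them required. The intervals cover counting error only.

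**Figure D1:**
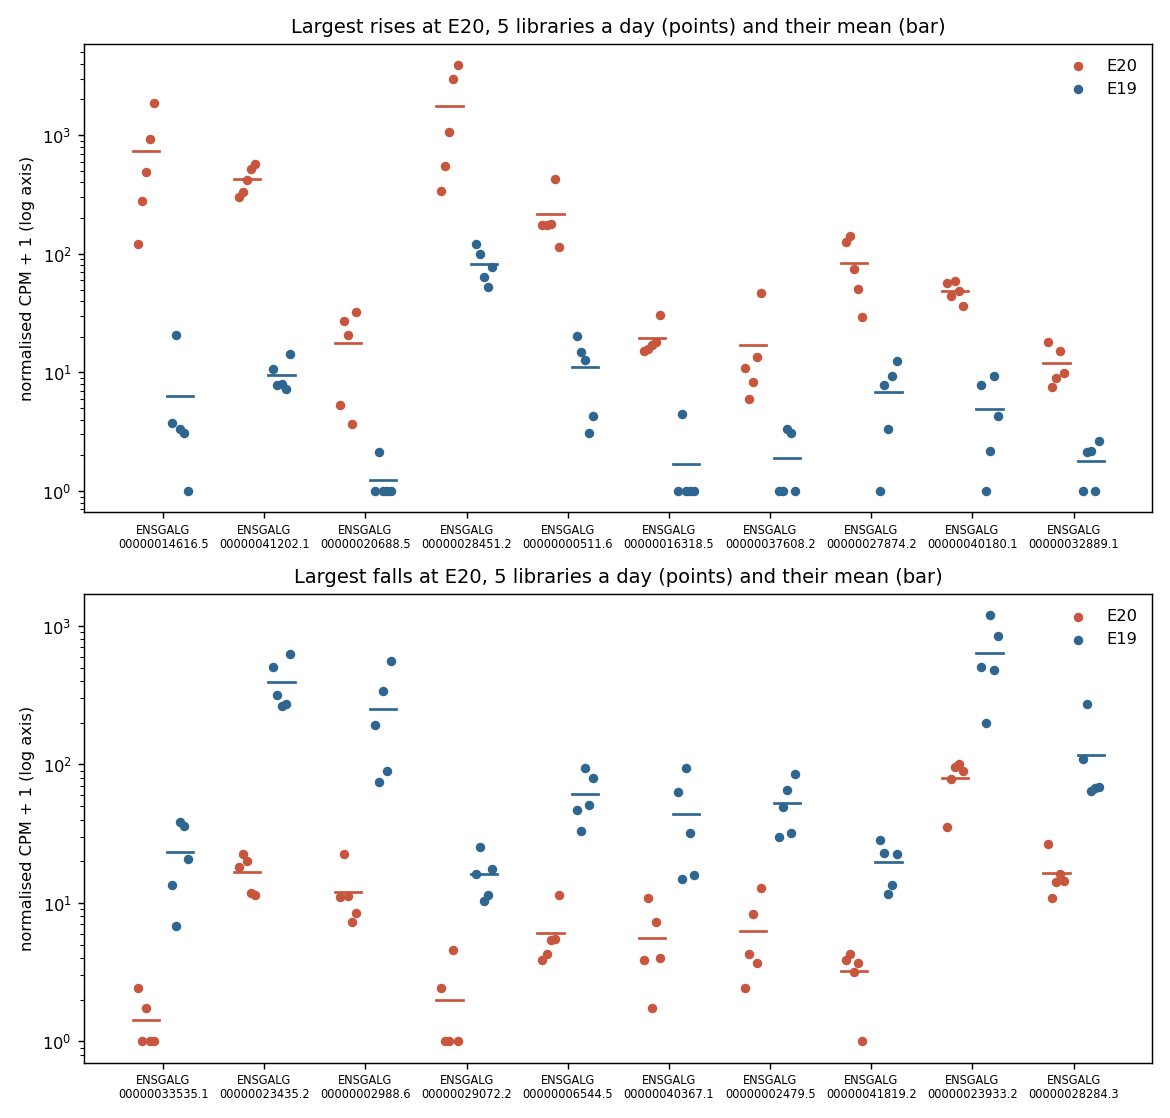
Normalised CPM plus 1 (vertical log axis) of the 10 genes with the largest rise (upper panel) and the 10 with the largest fall (lower panel), with E20 libraries left of E19 libraries. Points are single libraries, 5 a day, and bars their means. The genes were picked as not overlapping between the days, and the first gene of the upper panel has E20 libraries between 119.8 and 1883 CPM.

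Among the falls of genes whose days did not overlap, that of ENSGALG00000023435.2 came second in size. It had 17.1, 21.4, 19, 10.7 and 10.4 CPM in the E20 libraries, against 502, 314, 264, 273 and 622 CPM in the E19 libraries (log2 fold change -4.65, SE 0.29, adjusted p = 2.05e-13). The highest E20 library lay far below the lowest E19 library, and the means of earlier days were higher still, with 1373 ± 284 CPM at E15 and 1185 ± 317 at E17 (SD, n = 6 each). ENSGALG00000002988.6 had 9.98, 21.4, 10.2, 6.25 and 7.42 CPM at E20, against 192, 73.7, 337, 89 and 559 CPM at E19 (log2 fold change -4.57, SE 0.47, adjusted p = 6.72e-09). Here the E19 libraries were the uneven ones, with replicates 3 and 6 highest. ENSGALG00000023933.2 had 34.2, 77.2, 94.9, 99.1 and 89 CPM at E20, against 503, 197, 1189, 476 and 841 CPM at E19 (log2 fold change -3.00, SE 0.33, adjusted p = 2.69e-08). It kept the highest E20 level of the 10 falls.

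Other falls left fewer counts at E20. ENSGALG00000033535.1 had 2 counts in all E20 libraries, against 75 in all E19 libraries, where single libraries held 12.4, 5.75, 37.5, 35.2 and 19.8 CPM. The ratio of the E19 rate to the E20 rate was 47.4 (12.7 to 399), with an adjusted p of 1.91e-06 in edgeR. ENSGALG00000006544.5 had 2.85, 3.29, 4.38, 4.46 and 10.4 CPM at E20, against 45.5, 32.2, 92.6, 49.7 and 79.2 CPM at E19 (log2 fold change -3.57, SE 0.35, adjusted p = 2.27e-09). ENSGALG00000002479.5 had 1.43, 3.29, 7.3, 2.68 and 11.9 CPM at E20, against 29, 48.3, 64.4, 31 and 84.1 CPM at E19 (log2 fold change -3.25, SE 0.36, adjusted p = 3.02e-08). Its earlier means were higher, with 316 ± 65.8 CPM at E15 and 245 ± 44.8 at E17 (SD, n = 6 each). ENSGALG00000040367.1 had 2.85, 9.86, 0.73, 6.25 and 2.97 CPM at E20, against 62, 13.8, 93.7, 31 and 14.8 CPM at E19 (log2 fold change -3.41, SE 0.55, adjusted p = 1.63e-05). ENSGALG00000029072.2 had 1.43, 0, 0, 3.57 and 0 CPM at E20, against 15.2, 24.2, 9.37, 10.3 and 16.5 CPM at E19 (log2 fold change -3.67, SE 0.57, adjusted p = 8.45e-06). The size of its fall rests on 5 counts in all E20 libraries, most of them in replicate 4, without which the log2 fold change was -5.26. ENSGALG00000041819.2 had 2.85, 3.29, 2.19, 2.68 and 0 CPM at E20, against 27.6, 21.9, 10.5, 12.4 and 21.4 CPM at E19 (log2 fold change -3.03, SE 0.48, adjusted p = 1.11e-05). ENSGALG00000028284.3 had 25.7, 9.86, 13.1, 15.2 and 13.4 CPM at E20, against 109, 272, 63.3, 66.2 and 67.6 CPM at E19 (log2 fold change -2.93, SE 0.43, adjusted p = 3.83e-06), while E17 and E15 averaged 19.9 ± 9.02 and 9.66 ± 7.53 CPM (SD, n = 6 each), and E21 1.42 ± 0.591 CPM (SD, n = 4), so that its mean was highest at E19. Without E19 replicate 2 its log2 fold change was -2.32. ENSGALG00000033535.1, ENSGALG00000029072.2 and ENSGALG00000002988.6 also had their highest daily mean at E19. The E21 and E17 libraries were not compared in choosing the 10 risers and 10 fallers. They did share the fit, with its filter, its factors and its estimate of the spread. In these libraries the 10 risers had log2 fold changes of E21 over E17 between 1.48 and 9.93, with adjusted p-values of at most 0.0215 in edgeR. The 10 fallers had log2 fold changes between -6.78 and -2.75, with adjusted p-values of at most 5.01e-05 in edgeR. Of all genes tested, 25.5% were higher and 25.2% lower at E21 than at E17. The span from E17 to E21 contains the step, so a change made at the step and then kept appears in both.

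The 5 genes among the 26 higher and 11 lower genes with at least 8-fold changes whose libraries overlapped were ENSGALG00000039028.1, ENSGALG00000012610.6, ENSGALG00000004794.6, ENSGALG00000027454.2 and ENSGALG00000041708.1, named here after their values were seen. In ENSGALG00000039028.1 the E20 libraries fell into 2 levels, with 114, 100.2, 1.46, 104 and 0 CPM, against 1.38, 1.15, 0, 0 and 0 CPM at E19 (log2 fold change 6.55, SE 2.10, adjusted p = 0.0186). Replicates 3 and 5 of E20 stood at the level of the E19 libraries, and all of these are at or under the level of 3 counts. A single gene without counts on one of the days reached a mean of 10 CPM on the other. This was ENSGALG00000007109.5, and all of its 91 counts stood in E20 replicate 5, so it was not tested.

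The most abundant transcripts fell at the step. ENSGALG00000011086.5, the gene with the most counts, had 92633, 101742, 89564, 98422 and 86001 CPM in the E20 libraries, against 156628, 148952, 130652, 144540 and 162556 CPM in the E19 libraries (log2 fold change -0.67, SE 0.10, adjusted p = 2.92e-06). As a share of library totals it took 9.26% ± 0.44 of the E20 counts, against 11.6% ± 0.78 of the E19 counts (SD, n = 5 each). ENSGALG00000032404.1 fell furthest among the 5 most abundant, with 15658, 16997, 12745, 22206 and 20803 CPM at E20, against 27458, 46699, 54958, 43235 and 58685 CPM at E19 (log2 fold change -1.39, SE 0.17, adjusted p = 2.48e-07). It took 1.75% ± 0.373 of the E20 counts, against 3.61% ± 0.912 of the E19 counts. ENSGALG00000006835.4 took 2.18% ± 0.133 of the E20 counts, against 3.25% ± 0.166 of the E19 counts, with a log2 fold change of -0.92 (SE 0.10). ENSGALG00000002907.6 and ENSGALG00000006572.6 had log2 fold changes of -0.57 (SE 0.10) and -0.66 (SE 0.09), and the quasi-likelihood test of edgeR gave them adjusted p = 6.62e-05 and 6.29e-07. For all 5 genes the direction was also downward on the scale of library totals, where the log2 fold changes lay between -1.05 and -0.23 and the adjusted p-values in edgeR between 2.92e-06 and 0.0264.

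A few abundant genes rose against this current. ENSGALG00000004509.5 had 9504, 13296, 12514, 13952 and 14432 CPM in the E20 libraries, against 5467, 4536, 4886, 4190.3 and 4837 CPM in the E19 libraries (log2 fold change 1.41, SE 0.11, adjusted p = 2.84e-11). ENSGALG00000039977.2 had 15108, 5267, 14379.6, 7043 and 10128 CPM at E20, against 5404, 607, 2251, 1887 and 2798 CPM at E19 (log2 fold change 2.00, SE 0.33, adjusted p = 2.48e-05). Its days overlapped slightly, since E20 replicate 2 stood just under E19 replicate 1. ENSGALG00000035334.1 had 9425, 18280.1, 14047, 15955 and 10100.1 CPM at E20, against 9765, 4915, 7029, 3077 and 11596 CPM at E19 (log2 fold change 0.90, SE 0.29, adjusted p = 0.0197). Its days overlapped, and without E20 replicate 2, E19 replicate 2 or E19 replicate 5 the adjusted p was 0.0649, 0.0566 or 0.064 in edgeR. The other genes among the 20 most abundant that rose were ENSGALG00000037864.1 (log2 fold change 1.10, SE 0.21) and ENSGALG00000032142.1 (0.33, SE 0.11).

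The direction of the change went with abundance. Of all genes tested, 13.9% were higher and 13.6% lower at E20. Of the 20 most abundant genes over the 10 libraries, 5 were higher and 12 lower at E20, with a median log2 fold change of -0.55. The 3 that did not pass the test were ENSGALG00000028612.2, ENSGALG00000036073.1 and ENSGALG00000028872.2. Of the 80 genes ranked 21 to 100, 5 were higher and 57 lower (median -0.44), and of the 400 ranked 101 to 500, 63 were higher and 158 lower (median -0.25). From rank 1001 on the higher genes prevailed. Of the 1000 genes up to rank 2000, 208 were higher and 166 lower (median 0.04), and of the 2000 up to rank 4000, 304 and 186 (median 0.08). Of the last 1901 genes, 131 were higher and 104 lower, and their median fell back to 0.04. The 5 higher genes ranked 21 to 100 were ENSGALG00000003226.5, ENSGALG00000004521.5, ENSGALG00000007114.6, ENSGALG00000007205.6 and ENSGALG00000010614.4, with log2 fold changes between 0.41 and 1.09. On library totals the order of the medians was kept from rank 1 to rank 4000 but their level moved. They were -0.20, -0.10 and 0.09 in the first 3 classes, 0.38 at ranks 1001 to 2000 and 0.42 at ranks 2001 to 4000. The counts of higher and lower genes were then 5 and 10 for the 20 most abundant genes and 11 and 22 for ranks 21 to 100. Of the 400 genes ranked 101 to 500, 125 were higher and 54 lower. Higher genes prevailed among all 5901 genes tested on that scale, with 1761 higher and 328 lower, and less so at ranks 101 to 500. The test was also finer for abundant genes, with a median SE of 0.11 in the first class, 0.26 at ranks 2001 to 4000 and 0.43 at ranks 4001 to 5901. The share of genes called in these classes was 85%, 24.5% and 12.4%.

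**Figure D2:**
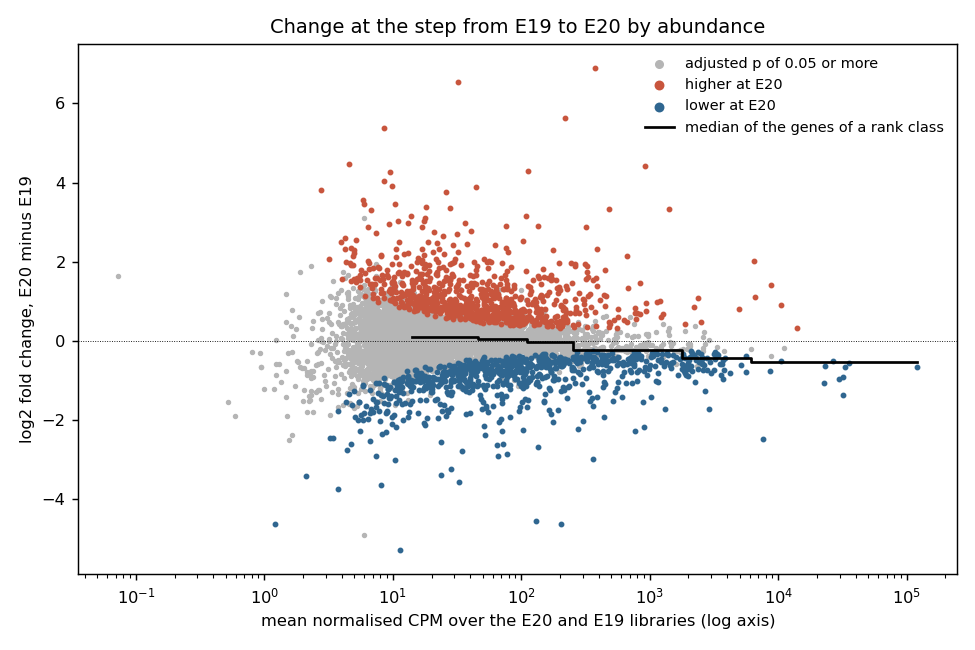
Log2 fold change of E20 over E19 (vertical axis) of the genes tested against their mean normalised CPM (horizontal log axis), coloured by direction where the adjusted p is under 0.05. The black line is the median of each abundance class down to rank 4000, and that of ranks 4001 to 5901 is not drawn. The line lies at -0.55 for the 20 most abundant genes and at 0.08 for ranks 2001 to 4000.

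The counts became less concentrated. In E20 libraries the 20 most abundant genes took 36% ± 1.23 of the counts, against 42.6% ± 1.33 in E19 libraries (SD, n = 5 each). Genes ranked 101 to 500 took 22.8% ± 0.746 at E20, against 20.4% ± 0.679 at E19. The effective number of genes, which is the exponential of the Shannon entropy of the count shares and equals the number of genes when all are equally abundant, was 541, 514, 555, 526 and 578 in the E20 libraries, against 332, 353, 365, 357 and 313 in the E19 libraries. No E20 library overlapped an E19 library. The means were 543 ± 24.9 at E20 and 344 ± 21.3 at E19, a difference of 199 (exact two-sided permutation test, p = 0.00794, 0.0159 adjusted over the 2 tests of library values, with 0.00794 the smallest p that 5 against 5 libraries allow). Without the most abundant gene the difference was 241. In shares of library totals, 16.6% of the mean E20 counts stood with other genes than at E19. The loss was borne by few genes and the gain by many: 7 genes made up 50% of the loss and 84 genes 50% of the gain, among 2714 genes that lost and 6000 that gained share.

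**Figure D3:**
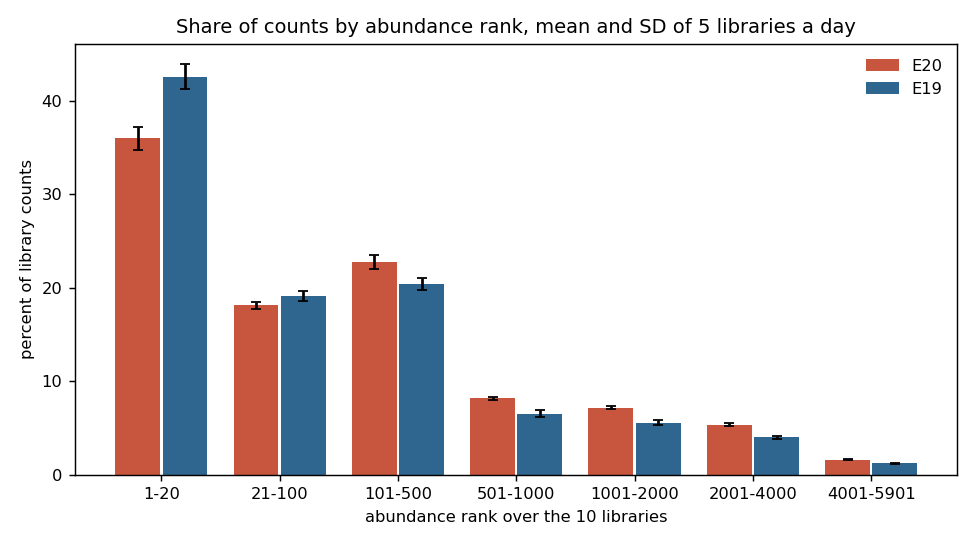
Percent of library counts (vertical axis) held by the genes of 7 abundance classes (horizontal axis, rank over the 10 libraries), with E20 left of E19. Bars are means of 5 libraries and error bars SD. The first class holds 36% at E20 and 42.6% at E19.

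Part of the transcriptome was measured closely enough to bound its change. For 2972 genes (50.4% of those tested) the log2 fold change with 2 SE on either side stayed within 2-fold, and of the 4280 genes that did not pass the test, 2543 were bounded in this way. The remaining 1737, which include any gene without a finite SE, could have changed 2-fold without being detected at this depth. The narrowest bounds around no change belonged to ENSGALG00000016232.5, ENSGALG00000028204.2 and ENSGALG00000004410.5. ENSGALG00000016232.5 had 2421, 2929, 2949, 3053 and 3104 CPM at E20, against 3199, 2830, 2860.3, 2107 and 3219 CPM at E19 (log2 fold change 0.02, SE 0.10, adjusted p = 0.889), with a 2 SE interval from -0.18 to 0.23. ENSGALG00000028204.2 averaged 299 ± 52.2 CPM at E20 and 296 ± 35.2 at E19, and ENSGALG00000004410.5 252 ± 30.7 at E20 and 248 ± 29.1 at E19 (SD, n = 5 each). These genes mark the TMM scale rather than a fixed amount of transcript: on library totals the 3 had log2 fold changes of 0.37, 0.35 and 0.36, and the adjusted p in edgeR was 0.00251, 0.0194 and 0.0108.

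Most genes tested, and most that changed, lay outside the 5 clusters of the authors' deposited table. These clusters are given for genes called between successive days in these libraries. Of the 1621 genes that differed, 502 higher and 543 lower genes belonged to no cluster, among 4998 such genes tested. Of those 4998 genes 20.9% differed, beside 27.5% of all genes tested, so changed genes were less frequent outside the clusters than among all genes. Only 117 higher and 94 lower genes outside the clusters changed at least 2-fold. On library totals 1392 higher and 128 lower genes were outside the clusters, of 1761 higher and 328 lower among all genes tested. The clusters were chosen on these samples and are not independent evidence of a direction. Cluster 5 of that table had 268 of 291 genes higher at E20 (92.1%, beside 13.9% of all genes tested) and a median log2 fold change of 1.39. In cluster 2, 150 of 171 genes were lower (87.7%, beside 13.6%), with a median of -1.15. Cluster 1 had 81 of 199 genes lower (40.7%) and a median log2 fold change of -0.69, beside 0.01 over all genes tested. Its 3 higher genes were ENSGALG00000006583.6, ENSGALG00000008359.4 and ENSGALG00000019514.5. Cluster 4 was mixed, with 33 of 161 genes higher (20.5%, beside 13.9%), 22 lower (13.7%, beside 13.6%) and a median of 0.04. Cluster 3 had 14 of 81 genes higher (17.3%, beside 13.9%) and 5 lower (6.17%, beside 13.6%), with a median of 0.39. Of its 5 lower genes, ENSGALG00000038748.1 moved most, with 17.1, 9.86, 22.6, 14.3 and 22.3 CPM at E20, against 97.9, 101, 96.1, 120.0 and 142 CPM at E19 (log2 fold change -2.64, SE 0.24, adjusted p = 4.51e-10), and the others were ENSGALG00000033212.2, ENSGALG00000035853.2, ENSGALG00000039565.2 and ENSGALG00000040896.2. Of the 20 genes with the largest rises and falls, 9 rises belonged to cluster 5, and 5 falls to cluster 2 and 3 to cluster 1.

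The changes at the step were set beside those of E21 against E17, which come from other libraries. The span from E17 to E21 contains the step, so a change made only at the step and then kept appears in both. The comparison therefore cannot tell whether a change extended beyond the step. Of the 820 genes higher at E20, 660 (80.5%) were higher at E21 than at E17, beside 25.5% of all genes tested, and 6 were lower, beside 25.2%. Of the 801 genes lower at E20, 595 (74.3%) were lower at E21 than at E17 and 13 were higher. No difference passed the test for 154 of the genes higher at E20 and 193 of those lower. The median log2 fold change of E21 over E17 was 1.11 for the genes higher at E20, -0.87 for those lower, and 0.00 for all genes. Across the 5901 genes the 2 log2 fold changes had a Pearson correlation of 0.722 and a Spearman correlation of 0.682, given as a description, since genes are not independent and both changes come from 1 fit with 1 set of factors. On library totals, where 46.1% of all genes were higher and 13.2% lower at E21, 83.8% of the genes higher at E20 were higher at E21 and 76.2% of those lower at E20 were lower.

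**Figure D4:**
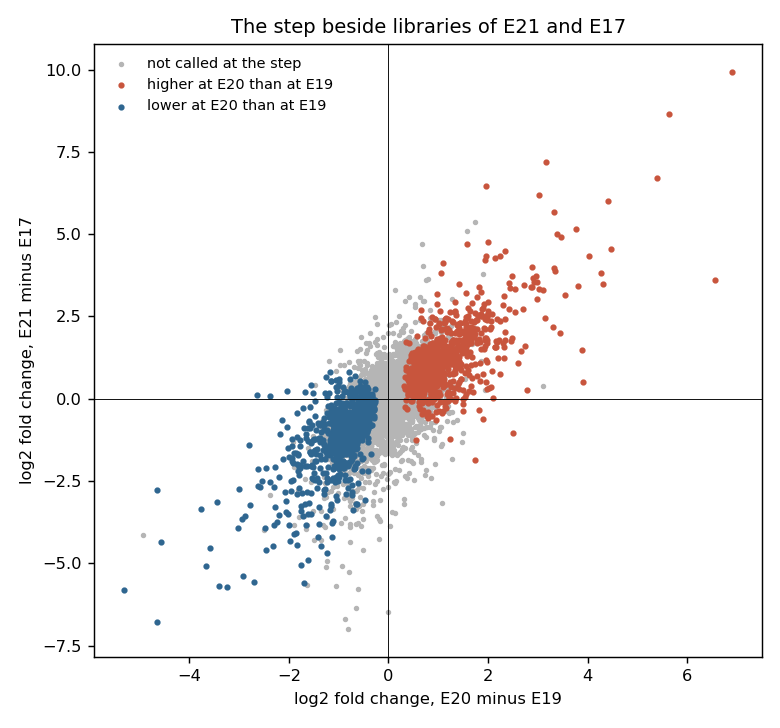
Log2 fold change of E21 over E17 (vertical axis) against that of E20 over E19 (horizontal axis), which share no library, for the 5901 genes tested. Genes that differed at the step are coloured by direction, and 660 of the 820 higher genes and 595 of the 801 lower genes also differed in that direction on the vertical axis.

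A few genes went one way at the step and the other way between E17 and E21. With a change of at least 2-fold at the step these were ENSGALG00000008359.4, ENSGALG00000019514.5 and ENSGALG00000040896.2, chosen after their values were seen. ENSGALG00000019514.5 had 28.5, 41.1, 24.1, 25.9 and 34.1 CPM at E20, against 12.4, 17.3, 8.2, 8.28 and 16.5 CPM at E19 (log2 fold change 1.23, SE 0.32, adjusted p = 0.00407), while it averaged 12.5 ± 7.43 CPM at E21 (SD, n = 4), against 29.8 ± 10.2 at E17 (SD, n = 6). ENSGALG00000008359.4 had 8.56, 16.4, 14.6, 44.6 and 10.4 CPM at E20, against 9.65, 5.75, 7.03, 4.14 and 1.65 CPM at E19 (log2 fold change 1.74, SE 0.53, adjusted p = 0.0132), and 3.93 ± 1.32 CPM at E21, against 14.4 ± 6.42 at E17. Its E20 mean rested in large part on replicate 4, and its days overlapped. ENSGALG00000040896.2 was the reverse case, with 4.28, 4.93, 6.57, 8.03 and 5.93 CPM at E20, against 15.2, 21.9, 5.86, 20.7 and 11.5 CPM at E19 (log2 fold change -1.25, SE 0.33, adjusted p = 0.00485). Its days overlapped, since E19 replicate 3 stood within the range of the E20 libraries. It averaged 14.8 ± 2.44 CPM at E21, against 9.38 ± 2.22 at E17 (log2 fold change 0.66, SE 0.27, adjusted p = 0.0424 in edgeR).

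Genes that fell at the step included many that had been higher at E17 than at E15. Between E17 and E15, again without any library of the step, 202 of the 801 genes lower at E20 (25.2%) had been higher at E17, beside 9.08% of all genes tested, and 62 (7.74%) had been lower, beside 8.66%. Of the genes higher at E20, 56 (6.83%) had been higher and 38 (4.63%) lower at E17, which is below both backgrounds. On library totals 14.3% of the genes lower at E20 had been higher at E17, beside 3.14% of all genes, and 20.1% had been lower, beside 25.3%. The 5 most abundant genes were higher at E17 too, with log2 fold changes of E17 over E15 between 0.68 and 0.97 on the TMM scale and adjusted p-values of at most 5.12e-05 in edgeR. The comparison of E17 with E15 was added after the data had been seen, and the part of abundance in these shares was not tested.

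How far the muscle moved within the step was measured on the line between the mean of the E17 libraries, set to 0, and that of the E21 libraries, set to 1, over the log2 CPM of all genes tested. The E20 libraries stood at 0.680, 0.708, 0.691, 0.759 and 0.809, against 0.240, 0.206, 0.219, 0.248 and 0.219 for the E19 libraries. The days were far apart on this line, and the E20 libraries were more spread along it. The means were 0.729 ± 0.0539 at E20 and 0.226 ± 0.0169 at E19 (SD, n = 5 each), so that the step covered 0.503 of the distance. The E15 libraries stood at -0.0271 ± 0.00781 (SD, n = 6). Each E17 and E21 library was placed by the other libraries of those days, which gave 0.0302 ± 0.0125 and 0.951 ± 0.0387. With library totals, with the genes of at least 50 CPM or with the genes that differed between E21 and E17, the step covered between 0.508 and 0.539.

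**Figure D5:**
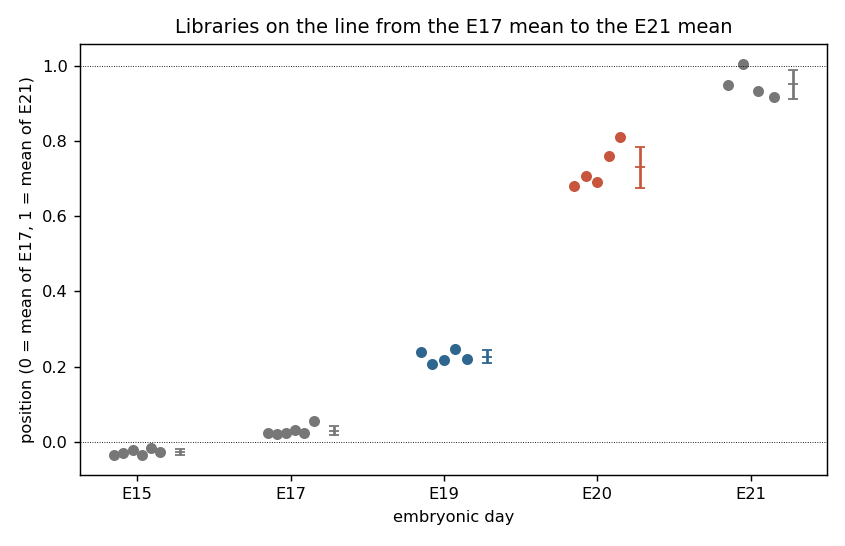
Position of each of the 26 libraries (points) on the line from the mean of E17 (0) to the mean of E21 (1), vertical axis, by embryonic day. Error bars are the mean and SD of a day. E19 libraries lie between 0.206 and 0.248 and E20 libraries between 0.68 and 0.809.

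The libraries of each day were compared for how far they stood from one another. The root mean square difference in log2 CPM between a library and the mean of the other libraries of its day was 0.569, 0.630, 0.473, 0.521 and 0.593 in the E20 libraries, against 0.585, 0.633, 0.595, 0.671 and 0.642 in the E19 libraries. The ranges overlapped, and the difference in means of -0.0678 did not pass the test (exact two-sided permutation, p = 0.0556, 0.0556 adjusted over the 2 tests of library values). Without E20 replicate 2 or without E19 replicate 1, 2 or 3 the exact p was 0.0317, 0.0317, 0.0476 or 0.0317 in the same permutation test. A day with a library left out is measured against means of fewer libraries, which by itself tends to raise its distances. The distances of a day also depend on one another, which the permutation does not take into account. The lowest value belonged to the deepest of the 10 libraries, E20 replicate 3, and the highest to the shallowest, E19 replicate 5, and the part of depth in this difference was not tested. Genes of at least 50 CPM on both days (1648 genes) had a median coefficient of variation of 16.2% at E20 and 18.3% at E19.

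Of 311 genes that rose at least 2-fold and had at least 10 CPM in every E20 library, the median ratio of the highest to the lowest E20 library was 1.88, and 33 genes reached a ratio of 3 and 6 a ratio of 5. Of 209 genes that fell at least 2-fold and had at least 10 CPM in every E19 library, the median ratio among the E19 libraries was 2.04, 39 reached 3 and 11 reached 5. Among the 311 rising genes, replicate 5 was the highest E20 library for 116 and replicate 1 the lowest for 97, the largest numbers of any library in either case. On the line from E17 to E21 replicate 5 was highest and replicate 1 lowest, although on library totals replicate 2 was the lowest. That line uses the same libraries and all genes tested, these 311 among them, so the 2 orders are not separate evidence. Among the 33 genes with a ratio of at least 3, replicate 5 was highest for 13, and the lowest library was replicate 2 for 9 and replicate 1 for 8. Of the 6 genes with a ratio of at least 5, ENSGALG00000014616.5 and ENSGALG00000028451.2 had replicate 5 highest and replicate 1 lowest, and the others had other orders. ENSGALG00000029606.1 had 215, 36.1, 141, 66.9 and 53.4 CPM at E20, with replicate 1 highest, against 56.5, 13.8, 23.4, 12.4 and 107 CPM at E19 (log2 fold change 1.30, SE 0.46, adjusted p = 0.0313). ENSGALG00000027165.3 had 84.1, 125, 60.6, 19.6 and 29.7 CPM at E20, with replicates 4 and 5 lowest, against 30.3, 24.2, 28.1, 12.4 and 13.2 CPM at E19 (log2 fold change 1.46, SE 0.40, adjusted p = 0.00628). The 6 genes with a ratio of at least 5 were picked for their spread, so their ranges are a description.

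The fold changes here and those in the authors' deposited table were close, with a median difference of 0.02 on the log2 scale and a 5th to 95th percentile of 0.00 to 0.04. The authors' deposited table called 468 genes between E20 and E19, 283 higher and 185 lower, with thresholds that the table itself states of 0.05 on the adjusted p, 1 on the absolute log2 fold change and 30 on the largest count. Of the 698 genes that changed at least 2-fold here, 247 were not called there. For 234 of these the largest count stayed under the authors' threshold, and for 7 the authors' log2 fold change was under 1. The threshold on counts was therefore the one that most of these genes did not meet.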

How the data were processed

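MARS-Seq libraries of broiler complexus were analysed from the authors' deposited table. It holds the authors' raw counts per gene and library, the same counts divided by 1 size factor per library (the authors' normalised signal, used only to check the counts), and for each pair of days the authors' log2 fold change and adjusted p-value. The authors' table also holds a cluster number and the largest count of each gene, treated as a score because the authors rounded large ones. STAR 2.7.10a, HTSeq 2.0.2 and DESeq2 are named in the submitters' processing notes. The genome build, the annotation, the strand setting and the kind of count (reads or molecules) were not given in the sources used here, so reads of overlapping genes or near-identical copies may be shared.

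Counts of all 26 libraries were fitted with edgeR 4.0.16 in R 4.3.3 (filterByExpr with a minimum count of 10, TMM factors, quasi-likelihood test, day as the only term, Benjamini-Hochberg adjustment over the 5901 genes tested). Called genes have an adjusted p under 0.05. CPM are normalised, log2 CPM have a prior count of 2, and library values were compared by exact permutation. Total counts ran from 580768 to 1373614 in the 10 libraries. No library pair of a day agreed within counting noise (chi-square per degree of freedom 4.62 to 11.5). Genes named are the 10 largest rises and 10 largest falls without overlap and averaging 10 CPM or more on one of the days, the 3 largest rises and 3 largest falls in mean CPM, the 5 most abundant, those without counts on 1 day, and the 3 with the narrowest bounds around no change. Others are said to be chosen later. The groups, lists and rules were chosen with earlier results of these data known. Alternatives were library totals, median-of-ratios factors, other filters, DESeq2 1.42.0, only the 10 libraries, the replicate numbers as a block, no top 20 genes and each library left out. The procedure was tested on simulated counts. In these few genes changed, as many up as down and none averaging under 10 CPM, so the dependence on scaling was not tested. None of 25635 RefSeq genes carried an identifier of the table (0 matches), so the lists of energy metabolism and cell type marker genes were not analysed here, nor were sequences.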

Additional observations from a re-analysis of the deposited data

Results flagged for a closer look

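The 5 libraries of a day were examined for 1 that stood apart from the other 4, by the gap to its nearest neighbour over the whole range (Dixon's 95% critical value for 5 samples). This was done for each gene named here and for the effective number of genes, distance, position and total counts. Of 126 such groups of values, 18 held one (14.3%), and several of the genes had been named for their spread. Chance gives about 1 in 20 for normally distributed values only, and the rule was applied to CPM without logarithms. A single library with counts among libraries without any is always flagged, so 1 in 20 is no measure of chance here. 

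Among the E20 libraries, ENSGALG00000000511.6 had 430.2 CPM in E20 replicate 4, against 114 to 176 in the others of that day. ENSGALG00000016318.5 had 29.7 CPM in E20 replicate 5, against 14.3 to 17 in the others of that day. ENSGALG00000037608.2 had 46 CPM in E20 replicate 5, against 4.93 to 12.5 in the others of that day. ENSGALG00000002988.6 had 21.4 CPM in E20 replicate 2, against 6.25 to 10.2 in the others of that day. ENSGALG00000006544.5 had 10.4 CPM in E20 replicate 5, against 2.85 to 4.46 in the others of that day. ENSGALG00000016232.5 had 2421 CPM in E20 replicate 1, against 2929 to 3104 in the others of that day. ENSGALG00000008359.4 had 44.6 CPM in E20 replicate 4, against 8.56 to 16.4 in the others of that day. ENSGALG00000007114.6 had 4402 CPM in E20 replicate 2, against 2587 to 3069 in the others of that day. ENSGALG00000004794.6 had 1.48 CPM in E20 replicate 5, against 0 in the others of that day. ENSGALG00000007109.5 had 135 CPM in E20 replicate 5, against 0 in the others of that day.

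Among the E19 libraries, ENSGALG00000014616.5 had 19.6 CPM in E19 replicate 2, against 0 to 2.76 in the others of that day. ENSGALG00000020688.5 had 1.15 CPM in E19 replicate 2, against 0 in the others of that day. ENSGALG00000016318.5 had 3.45 CPM in E19 replicate 2, against 0 in the others of that day. ENSGALG00000028284.3 had 272 CPM in E19 replicate 2, against 63.3 to 109 in the others of that day. ENSGALG00000033212.2 had 366 CPM in E19 replicate 2, against 115 to 138 in the others of that day. ENSGALG00000035853.2 had 24.7 CPM in E19 replicate 6, against 12.4 to 15.2 in the others of that day. ENSGALG00000004521.5 had 1952 CPM in E19 replicate 1, against 1448 to 1591 in the others of that day. ENSGALG00000028612.2 had 29925 CPM in E19 replicate 1, against 5842 to 8847 in the others of that day.

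In E20 the library that stood apart was most often replicate 5, and in E19 replicate 2. For both libraries this tally includes genes with counts in that library alone, which are always flagged. Some genes were also named for their spread, so the tally is a description and no ranking of the libraries. Values near 1 CPM are single counts.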

How the results depend on the processing

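The count of 1621 genes that differed stayed within 1.5 times under the other scalings and filters, DESeq2 (1630) and each library left out (1454 to 1558, and 657 to 728 of those at least 2-fold), but the split of 820 higher and 801 lower was 1761 and 328 on library totals. The replicate numbers shared by both days (1, 2, 3 and 5) were tried as a replicate block in a fit of those 8 libraries, which called 792 genes and 450 at least 2-fold. The same 8 libraries without the block gave 897 and 465, with fewer libraries and genes in both fits. Same-numbered libraries did not deviate together (correlations 0.0132 to 0.0248 over 4 pairs, and 0 E20 libraries closest to their own number), so the number was taken as a name. E17 against E15 gave 1047 genes with TMM factors and 1679 on library totals (185 higher and 1494 lower at E17), and the cause was not tested. The difference in the effective number of genes ran from 190.3 to 206 with 1 library left out. The difference in distance from the own day ran from -0.102 to -0.0211, and passed the exact permutation test without E20 replicate 2 (-0.0746) or E19 replicate 1, 2 or 3 (-0.102, -0.0859 and -0.0986). With a library left out the days differ in their number of libraries, which by itself shifts the distances. Of 591 recomputed fold changes of named genes, 0 changed sign after passing the test, 3 no longer passed it (all of ENSGALG00000035334.1) and 3 newly passed it (the genes with the narrowest bounds, on library totals). The fit of only the 10 libraries tested 4176 genes and called 1172, with 481 at least 2-fold. ENSGALG00000020688.5, ENSGALG00000037608.2, ENSGALG00000032889.1, ENSGALG00000033535.1, ENSGALG00000029072.2, ENSGALG00000040367.1 and ENSGALG00000041819.2 did not pass its filter, nor that of the fits of 8 libraries. The 591 values therefore hold none of these genes from those fits. Depth limits the low genes most, since 3 counts are 2.19 to 6.21 CPM.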

Other observations

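ENSGALG00000038656.1, chosen after its values were seen, was nearly absent from 1 library of each day of the step. This was not particular to the step, since the gene had 0 counts in replicates 5 and 6 of E15 and of E17, and 1 count in E21 replicate 5. It had 88.4, 54.2, 42.4, 47.3 and 1.48 CPM in E20 replicates 1 to 5, against 34.5, 15, 0, 29 and 21.4 CPM in E19 replicates 1, 2, 3, 5 and 6. E20 replicate 5 and E19 replicate 3 held at most 1 count of it. Among the remaining libraries of the step every E20 value stood above every E19 value, but the 2 were set aside by these same values. The separation is therefore a description and no evidence of a rise. Without these 2 libraries 1362 genes differed between E20 and E19, against 1621 with all 10, an alternative added after seeing the data. Each library of the step left out alone also gave fewer than 1621, and the part of the smaller number of libraries was not tested.

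ENSGALG00000028612.2 was 1 of the 3 among the 20 most abundant that did not pass the test. It had 14142, 16614, 12309.9, 4321 and 4442 CPM in the E20 libraries, against 29925, 7313, 8847, 5842 and 7306 CPM in the E19 libraries (log2 fold change -0.19, SE 0.38, adjusted p = 0.751, edgeR). E19 replicate 1 exceeded every E20 library, and the other E19 libraries lay within the range of the E20 libraries.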
